A study of Mus musculus with 59 samples.

Results

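Metallothioneins are small, cysteine-rich proteins that bind zinc and copper ions. The genes described here are the 3 members of the family with the symbols Mt1, Mt2 and Mt3, out of 57180 gene rows in the count table. They were chosen by symbol, and Mt3 drew attention because its count was lower in the cortex of double heterozygous mice than in wild type. That contrast, and the cortex contrasts that share its libraries, are therefore described without a test. All 3 members passed the filter on low counts in both tissues.

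In 30 male mice, poly(A) RNA of both brain regions was sequenced (59 libraries) to compare animals heterozygous for either or both of 2 genes for mitochondrial proteins in the mouse region matching human 22q11.2. The product of Slc25a1 exports citrate from mitochondria, and that of Mrpl40 is a protein of the large mitochondrial ribosomal subunit. Wild type (Mrpl40 +/+, Slc25a1 +/+) gave 9 cortex and 8 hippocampus libraries. Slc25a1 het (Slc25a1 -/+ with Mrpl40 +/+), Mrpl40 het (Mrpl40 -/+ with Slc25a1 +/+) and double het (-/+ at both genes) gave 7 libraries each per tissue. Both tissues were available from 29 animals. The sources used here do not give the kind of allele, the strain or the age of the mice.

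Library totals ranged from 21443017 to 32120906 counts. The level of Slc25a1 fell into 2 separate ranges, 10.8 to 13.1 and 21 to 26.3 CPM (read counts scaled to the library total) in cortex, and in 6 animals it went against the label in both tissues. These were 2 animals labelled wild type at the low level, and 2 labelled Slc25a1 het and 2 labelled double het at the high level. Groups are named by label throughout, and results without these animals are given where they differ. In hippocampus the ranges were 10.8 to 12.9 and 21 to 27.3 CPM. Mrpl40 averaged 17.4 to 17.9 CPM over the 4 cortex groups and 15.3 to 16 CPM over the 4 hippocampus groups, so its level did not separate the labelled genotypes. The hippocampus library of Slc25a1 het replicate 3 summed to 861 CPM over 10 cerebellum markers, against a tissue median of 106, and leaving it out changed no direction or call of a member. Marker genes of astrocytes, neurons and oligodendrocytes were present in both tissues.

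Mt1 and Mt2 are inducible: the transcription factor MTF1, which senses free zinc, binds metal response elements in their promoters, and glucocorticoids and oxidative stress also raise their transcription. In brain they are known mainly from astrocytes. Mt3 was first described as an inhibitor of neurite growth, is largely restricted to the nervous system, is found in neurons that store zinc in synaptic vesicles and in astrocytes, and responds little to metals. In RNA from whole tissue, fewer cells of a type and less RNA per cell cannot be told apart.

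The promoters are shown because metal response elements are the known control sites of Mt1 and Mt2. The 250 bases before each start site are printed 5′ to 3′ from the RefSeq promoter table (GRCm38.p6, plus strand), a different build from the GRCm39 named in the submitters' processing notes. Capitals mark matches on either strand to the core of the metal response element, searched as TGCACNC and TGCGCNC. The stretches are chr8:94178839-94179088 for Mt1, chr8:94172368-94172617 for Mt2 and chr8:94152357-94152606 for Mt3.
Mt1: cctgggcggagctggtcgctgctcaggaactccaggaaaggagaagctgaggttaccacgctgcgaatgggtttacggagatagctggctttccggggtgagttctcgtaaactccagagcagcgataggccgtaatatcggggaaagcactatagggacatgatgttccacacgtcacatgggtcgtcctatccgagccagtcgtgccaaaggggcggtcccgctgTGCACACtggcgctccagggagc
Mt2: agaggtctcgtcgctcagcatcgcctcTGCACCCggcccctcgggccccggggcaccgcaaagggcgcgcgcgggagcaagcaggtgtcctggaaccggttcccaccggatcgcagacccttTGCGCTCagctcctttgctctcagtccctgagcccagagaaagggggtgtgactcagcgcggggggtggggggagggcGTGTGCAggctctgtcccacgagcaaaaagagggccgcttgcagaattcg
Mt3: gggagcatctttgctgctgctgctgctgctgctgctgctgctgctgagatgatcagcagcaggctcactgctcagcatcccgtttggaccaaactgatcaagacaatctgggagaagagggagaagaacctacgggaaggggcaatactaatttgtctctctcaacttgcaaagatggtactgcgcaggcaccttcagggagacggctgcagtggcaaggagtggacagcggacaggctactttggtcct

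The Mt2 stretch held 3 matches, 223, 128 and 50 bases before the start, and the match nearest the start lies on the minus strand. The Mt1 stretch held 1 match, 23 bases before the start. The Mt3 stretch held 0 matches, and a run of 11 CTG repeats lay near its 5′ end. Each stretch ends at the start site used in the table, and GENCODE vM21 annotates further starts downstream. From the table's start to the last annotated start in the first exon, Mt1 held 4 more matches in 152 bases, Mt2 4 in 242 bases and Mt3 3 in 139 bases. The 250 bases before that last start, a window added after the first counts were seen, held 5, 4 and 3 matches, so the counts of the printed stretches depend on the start chosen and do not rank the members. Of 32851 promoters in the table, 21.4% held at least 1 match and 1.26% held at least 3. A match describes letters in this window only and is not evidence of binding.

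Mt3 was the most abundant member per length in both tissues. Relative to the length of its 536-base transcript, Mt3 stood at 258 ± 16.7 CPM per kilobase in cortex (SD, n = 30) and 391 ± 28.7 in hippocampus (n = 29). Mt1, with a transcript of 549 bases, stood at 146 ± 18.0 and 218 ± 32.9 CPM per kilobase. Mt3 exceeded Mt1 in every library, by 1.79-fold on average in cortex (range 1.38 to 2.07) and 1.82-fold in hippocampus (range 1.29 to 2.2). Mt2, with a transcript of 511 bases, stood at 2.19 ± 0.702 and 4.07 ± 1.09 CPM per kilobase, so that the order Mt3, Mt1, Mt2 held in every library. Over the union of all annotated exons the cortex values were 130 CPM per kilobase for Mt3, 64.3 for Mt1 and 1.9 for Mt2, in the same order. Mt4, the remaining member of the family and known from stratified epithelia, had 1 count in each of 4 cortex libraries and 1 hippocampus library and 0 in the rest.

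The Mt2 level is uncertain. Its counts ranged from 15 to 113 per library, against 1647 to 5814 for Mt1 and 2860 to 7350 for Mt3. In the GENCODE vM21 annotation (GRCm38), the antisense gene Gm45774 covers 432 of the 588 exonic bases of Mt2, or 73.5%, from the opposite strand. The library kit preserves strand per the labels, but the sources used here do not say whether the counting used strand. Without strand, reads over both genes cannot be assigned to either. Among 37 protein-coding genes with 70 to 90% of their exonic bases under exons of the other strand, the class Mt2 falls in, the median was 0.58 CPM, the highest mean was 16.7 CPM, 37.8% exceeded 1 CPM and 0 genes stood at 0. Among 15 protein-coding genes with 90 to 99% so covered, the median was 0.0384 CPM, but the highest mean was 149 CPM and 4 genes stood at 0. Among 24 protein-coding genes with at least 99% so covered, the highest mean was 0.985 CPM and 18 genes stood at 0. Among 16512 protein-coding genes with no such overlap, 57.3% exceeded 1 CPM. The antisense gene itself had 1 to 30 counts per library. Mt2 values below are therefore values of the counted reads, and whether reads are missing was not tested.

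All 3 members were higher in hippocampus than in cortex. Cortex Mt3 ranged from 121 to 157 CPM (median 137) over 30 libraries, and hippocampus Mt3 from 186 to 242 CPM (median 205) over 29. Within animals, hippocampus exceeded cortex in 29 of 29 animals, with ratios from 1.26 to 1.96. The log2 difference fitted by edgeR with the animal as a block was 0.61 ± 0.0216 (SE), or 1.52-fold, and is given without a test because it includes the cortex libraries by which Mt3 was noticed. In the groups that had no part in that choice it was 0.63 ± 0.0438 in Slc25a1 het and 0.59 ± 0.0438 in Mrpl40 het, with hippocampus higher in 7 of 7 animals of each. Cortex Mt1 ranged from 66.1 to 109 CPM (median 78.1) and hippocampus Mt1 from 95.5 to 191 CPM (median 117). These ranges overlapped, but hippocampus was higher in 29 of 29 animals. The log2 difference for Mt1 was 0.57 ± 0.0348, or 1.49-fold (edgeR quasi-likelihood test, Benjamini-Hochberg adjusted p = 1.42e-15).

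Mt2 was 1.87-fold higher in hippocampus, a log2 difference of 0.90 ± 0.0984 (edgeR adjusted p = 3.44e-10). It ranged from 0.655 to 2.31 CPM (median 1.1) in cortex and from 0.981 to 3.71 CPM (median 2.14) in hippocampus. It was higher in hippocampus in 27 of 29 animals, and 1 wild-type and 1 Mrpl40 het animal went the other way. The antisense gene Gm45774 was 3.35-fold higher in hippocampus (edgeR adjusted p = 3.49e-12). The tissues differ widely: 77.5% of 21354 genes tested were called, 39.8% as higher in hippocampus and 37.7% as lower, so that the calls of Mt1 and Mt2 as higher are read against a large background. The median log2 difference over all genes tested was 0.01, below that of each member.

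**Figure D1:**
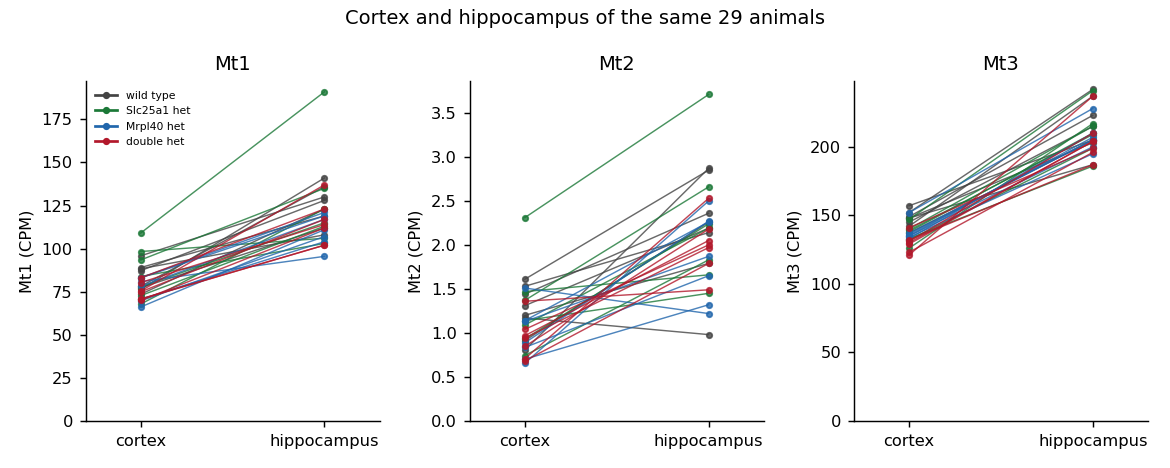
Level of Mt1, Mt2 and Mt3 in CPM in the cortex and hippocampus of 29 animals, with each line joining the tissues of 1 animal and colours marking the labelled genotype. The lines rise in 29 of 29 animals for Mt1 and Mt3 and in 27 of 29 for Mt2.

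The tissue difference had the same direction on average in each labelled genotype. Mt3 differed by 0.54 ± 0.139 (SD of the log2 difference, n = 8 animals) in wild type, 0.63 ± 0.095 in mice labelled Slc25a1 het, 0.59 ± 0.036 in Mrpl40 het mice and 0.66 ± 0.157 in double het mice (n = 7 each). Mt1 differed by 0.58 ± 0.206, 0.54 ± 0.268, 0.54 ± 0.153 and 0.62 ± 0.127 in the same order. The contrast of tissue differences that leaves out wild type and double het, Slc25a1 het against Mrpl40 het, was 0.00 ± 0.0999 (SE) for Mt1, -0.12 ± 0.281 for Mt2 and 0.03 ± 0.0617 for Mt3. In that contrast 0 of 3 members were called by edgeR, with 0 at an unadjusted p under 0.05 and 0 by DESeq2, and 0.0% of all genes were called.

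Cell type markers also differed between the tissues, and their part in the difference of the members was not tested. Of 12 astrocyte markers, 7 were called higher in hippocampus and 2 lower, with a median log2 difference of 0.08. Gfap, an intermediate filament of astrocytes, was 7.44-fold higher and the water channel Aqp4 2.17-fold higher. The gap junction protein gene Gja1 was 1.56-fold and the bicarbonate transporter gene Slc4a4 1.69-fold higher. The 2 called lower, named after their values were seen, were Aldh1l1 at 0.704-fold and Fgfr3 at 0.955-fold, and Aldoc, Acsbg1 and Gjb6 were not called. The summed astrocyte markers ranged from 6520 to 7510 CPM in wild-type cortex and from 7130 to 8980 CPM in wild-type hippocampus, and none of the 12 was near 0. Of 10 meningeal markers, 6 were called higher and 0 lower in hippocampus (median 0.50), and of 10 neuron markers, 0 were called higher and 9 lower (median -0.32). Of 12 microglia markers, 8 were higher and 0 lower, of 12 oligodendrocyte markers 6 and 0. Endothelial and pericyte markers gave 2 and 1 of 12, and choroid plexus markers 6 and 1 of 7. Ribosomal protein genes gave 19 and 2 of 28 (median 0.165). Of all genes, 39.8% were called higher and 37.7% lower.

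Genes that move zinc were split between the tissues, and so were all genes tested, with 39.8% called higher in hippocampus and 37.7% lower. SLC30 proteins carry zinc out of the cytosol, into vesicles or out of the cell, and SLC39 proteins carry it into the cytosol. Of 9 measured SLC30 genes, 4 were called higher in hippocampus and 5 lower. Slc30a4 stood at 90.9 ± 8.29 CPM in cortex (SD, n = 30) and 48.2 ± 4.13 in hippocampus (n = 29), a fold of 0.533, and Slc30a2 was also lower, at 0.801-fold. Slc30a6 and Slc30a7 were 1.38-fold and 1.18-fold higher in hippocampus. Slc30a3, which loads zinc into synaptic vesicles and was named after its values were seen, stood at 135 ± 11.2 CPM in cortex and 117 ± 15.2 in hippocampus, or 0.869-fold (edgeR adjusted p = 0.000257).

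Of 13 measured SLC39 genes, 9 were called higher in hippocampus and 3 lower, beside 39.8% and 37.7% of all genes. The largest difference upward was in Slc39a6, from 46.2 ± 3.69 CPM in cortex to 125 ± 15.7 in hippocampus, or 2.69-fold. Slc39a11 was 2.06-fold and Slc39a14 1.27-fold higher. Slc39a10 went the other way, from 261 ± 27.9 CPM in cortex to 114 ± 10.5 in hippocampus, or 0.44-fold. Adjusted p in edgeR was 1.88e-17 or lower for these 4 genes. The median log2 difference was 0.07 over the SLC39 genes and -0.05 over the SLC30 genes.

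**Figure D2:**
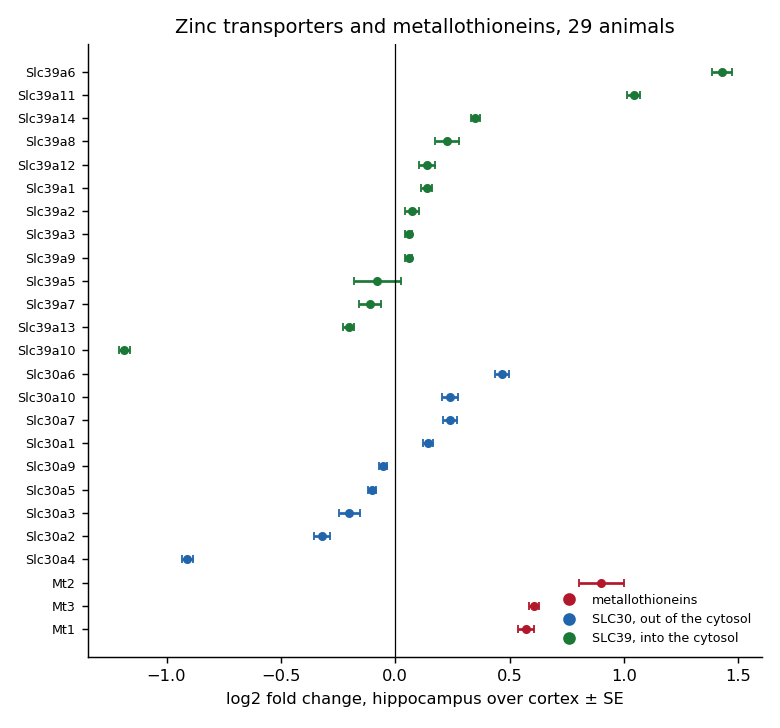
Log2 fold change of hippocampus over cortex with SE for the metallothioneins and for measured zinc transporter genes, from edgeR with 29 animals as blocks. The metallothioneins lie between 0.57 and 0.90, while the transporters lie on both sides of 0, from -1.18 for Slc39a10 to 1.43 for Slc39a6.

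The gene of the metal sensor itself was not called between the tissues. Mtf1, which encodes the metal sensor, stood at 37.4 ± 2.74 CPM in cortex and 36.9 ± 2.09 in hippocampus, with a log2 difference of -0.02 ± 0.0229 (edgeR adjusted p = 0.42). Of 6 measured metal sensing and storage genes, 3 were called higher and 0 lower. These were the ferritin heavy chain gene Fth1 (1.28-fold), the hypoxia factor gene Hif1a (1.13-fold) and the calcium buffer gene Calb1 (1.33-fold). Ferritin genes have processed copies in the genome that can share reads, so their levels are uncertain. Of 11 measured copper genes, 4 were called higher and 4 lower, among them Slc31a2 (1.37-fold), Sod1 (0.899-fold), Cox17 (0.928-fold) and Commd1 (1.11-fold). Of all genes, 39.8% were called higher and 37.7% lower.

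Genes responding to 2 other inducers of Mt1 and Mt2 also went both ways. Their calls stand beside 39.8% of all genes called higher and 37.7% called lower. Of 16 glucocorticoid response genes, 6 were called higher in hippocampus and 8 lower. Fkbp5, a chaperone of the glucocorticoid receptor, was 3.05-fold higher and Ddit4 2.37-fold higher, while Cdkn1a and Dusp1 stood at 0.201-fold and 0.176-fold. Of 14 oxidative stress genes of the NRF2 pathway, 7 were called higher and 3 lower. Txnrd1, Hmox1 and Gsta4 were 1.33-fold, 1.49-fold and 1.29-fold higher and Srxn1 stood at 0.711-fold.

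In cortex, Mt3 was lower in the heterozygous groups than in wild type, and lowest in double het. Wild-type libraries ranged from 137 to 157 CPM (median 148), Slc25a1 het from 126 to 147 (median 138), Mrpl40 het from 133 to 152 (median 135) and double het from 121 to 141 (median 130). Below every wild-type library lay 6 of 7 double het, 5 of 7 Mrpl40 het and 3 of 7 Slc25a1 het libraries, and a single double het library, replicate 3 at 141 CPM, lay within the wild-type range. Means were 147 ± 5.88 CPM in wild type (SD, n = 9), 137 ± 6.77 for Slc25a1 het, 137 ± 6.41 for Mrpl40 het and 129 ± 6.5 for double het (n = 7 each). The order of levels was therefore wild type, then the single heterozygous groups, which overlapped each other, then double het, whose range overlapped both.

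The fitted log2 fold changes of Mt3 against wild type were -0.11 ± 0.0345 (SE) for Slc25a1 het, -0.10 ± 0.0344 for Mrpl40 het and -0.19 ± 0.0346 for double het, or 0.877-fold in the last. Double het differed from Slc25a1 het by -0.08 ± 0.0366 and from Mrpl40 het by -0.09 ± 0.0366. The interaction, which is double het minus the sum of both single effects, was 0.02 ± 0.0502. The double het value is the one by which Mt3 came to attention, and the other comparisons share its libraries, so that no test is given. Over all genes, edgeR called 0.0686% in double het, 0.0294% in Mrpl40 het and 0.0% in Slc25a1 het against wild type in cortex. The double het share is 14 genes, which became 1 without double het replicate 5 and 32 without double het replicate 3. Without the 6 animals with a Slc25a1 level against their label, the double het value was -0.18 ± 0.0412.

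The Mt3 values in cortex changed when gene length and GC content entered the fit. With per-library trends over length and GC content as offsets, the double het value was -0.09 ± 0.034, the Mrpl40 het value -0.03 ± 0.0339 and double het against Slc25a1 het -0.01 ± 0.0361. Fold changes of the gene lists that follow come from the fit without these offsets, and their change with the offsets was not tested. Of 28 genes for ribosomal proteins, 27 were lower in double het cortex than in wild type (median log2 -0.08 against 0.00 over all genes). Of the 28, 2 were called lower. Their summed level ranged from 2780 to 3000 CPM in wild type and from 2560 to 2910 in double het. Of 12 astrocyte markers, 12 lay below wild type in double het cortex (median -0.08, none called), with sums of 6520 to 7510 CPM in wild type and 6200 to 7060 in double het. Microglia markers lay lower in 11 of 12 (median -0.12), with 1 called. Oligodendrocyte markers lay above wild type in 12 of 12 (median 0.18), neuron markers in 8 of 10 (median 0.06) and meningeal markers in 8 of 10 (median 0.10), none called. In Mrpl40 het cortex, 12 of 12 astrocyte, 25 of 28 ribosomal and 12 of 12 microglia genes lay below wild type. There 12 of 12 oligodendrocyte (median 0.30), 9 of 10 neuron and 0 of 10 meningeal markers lay above it. In Slc25a1 het cortex, 9 of 12, 18 of 28 and 9 of 12 lay below. There 12 of 12, 6 of 10 and 6 of 10 lay above, in the same orders. Of all genes, 48.6% lay above wild type in double het, 49.0% in Mrpl40 het and 49.7% in Slc25a1 het. The part of these genes in the Mt3 result was not tested.

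Mt1 and Mt2 overlapped more between cortex genotypes. Mt1 averaged 82.7 ± 7.52 CPM in wild type, 86.1 ± 14.8 for Slc25a1 het, 75.9 ± 7.01 for Mrpl40 het and 75.0 ± 5.08 for double het. Below every wild-type library lay 3 of 7 double het, 3 of 7 Mrpl40 het and 2 of 7 Slc25a1 het libraries for Mt1, and 2 Slc25a1 het libraries lay above all wild type. Mt2 averaged 1.23 ± 0.272, 1.3 ± 0.513, 0.979 ± 0.299 and 0.935 ± 0.23 CPM in the same order. The log2 fold changes against wild type in double het were -0.15 ± 0.0788 for Mt1 and -0.39 ± 0.204 for Mt2, given as a description. Slc25a1 het differed from wild type by 0.05 for Mt1 and 0.06 for Mt2, and without Slc25a1 het replicate 7 by -0.01 and -0.14. At the other end, Mt1 gave 0.11 without Slc25a1 het replicate 1 and Mt2 gave 0.16 without Slc25a1 het replicate 4.

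**Figure D3:**
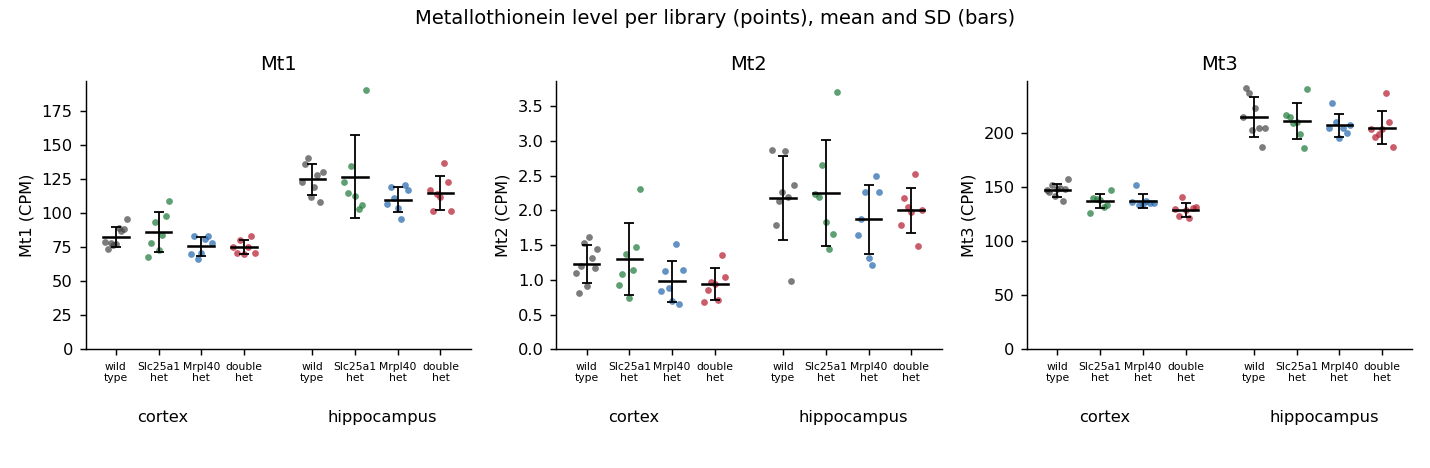
Level of Mt1, Mt2 and Mt3 in CPM for each library (points) by tissue and labelled genotype, with the mean and SD (black bars). Cortex Mt3 averages 147 CPM in wild type and 129 CPM in double het, and hippocampus Mt3 stands above cortex in each genotype.

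Slc25a1 het against Mrpl40 het is the cortex comparison that uses neither wild type nor double het. Mt1 differed by 0.18 ± 0.0831 on the log2 scale (edgeR adjusted p = 0.859), Mt2 by 0.39 ± 0.21 (adjusted p = 0.859) and Mt3 by -0.01 ± 0.0365 (adjusted p = 0.984). With edgeR 0 of 3 members were called, with 1, Mt1, at an unadjusted p under 0.05, and DESeq2 also called 0. Without the 6 animals with a Slc25a1 level against their label, 2 members had an unadjusted p under 0.05 in edgeR. With the length and GC content offsets 0 did. Over all genes 0.0245% were called. Leaving out Slc25a1 het replicate 7 gave 0.11 for Mt1 and 0.19 for Mt2. At the other end, Mt1 gave 0.23 without Slc25a1 het replicate 1 and Mt2 gave 0.52 without Mrpl40 het replicate 5. Of 10 meningeal markers, 10 lay higher in Slc25a1 het (median 0.44, none called), with sums of 14.4 to 72.6 CPM against 16.5 to 60.3 in Mrpl40 het, and their part in the values of Mt1 and Mt2 was not tested. Of all genes, 50.5% lay higher in Slc25a1 het.

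In hippocampus, no member was called in the comparisons between genotypes that were tested. Mt3 in wild type ranged from 187 to 242 CPM (median 210), in Slc25a1 het from 186 to 241 (median 210), in Mrpl40 het from 195 to 228 (median 205) and in double het from 187 to 237 (median 204). The ranges overlapped almost fully, and 0 of 7 double het libraries lay below every wild-type library. Double het differed from wild type by -0.07 ± 0.0558 on the log2 scale, with a 95% interval of -0.18 to 0.04 (edgeR adjusted p = 0.989). Whether the double het value differs between the tissues was not tested, since that contrast would use the cortex libraries by which Mt3 was chosen. The wild-type hippocampus libraries spread more widely than those of cortex, with an SD of 18.6 CPM around 215.

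Mt1 in hippocampus averaged 125 ± 11.4 CPM in wild type (SD, n = 8), 127 ± 30.4 for Slc25a1 het, 110 ± 9.25 for Mrpl40 het and 115 ± 12.4 for double het (n = 7 each). It ranged from 108 to 141, 103 to 191, 95.5 to 121 and 102 to 137 CPM in these groups. Double het differed from wild type by -0.11 ± 0.10 (edgeR adjusted p = 0.989) and Mrpl40 het by -0.18 ± 0.10 (edgeR adjusted p = 0.637). Mt2 averaged 2.18 ± 0.603, 2.25 ± 0.76, 1.87 ± 0.497 and 2.0 ± 0.32 CPM, and double het differed from wild type by -0.12 ± 0.197 (edgeR adjusted p = 0.996). That Mt2 value was -0.24 without wild-type replicate 8 and -0.05 without wild-type replicate 6, and ran from -0.22 to -0.04 over the other alternatives. Slc25a1 het differed from wild type by 0.03 ± 0.0999 for Mt1, 0.06 ± 0.194 for Mt2 and -0.02 ± 0.0558 for Mt3. The highest Mt1 and Mt2 levels in hippocampus, 191 and 3.71 CPM, came from Slc25a1 het replicate 7. Without it, Slc25a1 het against wild type gave -0.10 for Mt1 and -0.11 for Mt2, and double het against Slc25a1 het gave -0.01 for both. Without Slc25a1 het replicate 5, the first comparison gave 0.07 for Mt1 and 0.14 for Mt2, and the second -0.19 and -0.27.

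For each of these comparisons with wild type, edgeR called 0 of 3 members, with 0 at an unadjusted p under 0.05, and DESeq2 called 0. Over all genes in hippocampus, edgeR called 0.00992% in double het, 0.00496% in Mrpl40 het and 0.0% in Slc25a1 het. Double het against Slc25a1 het gave -0.14 ± 0.103, -0.18 ± 0.201 and -0.05 ± 0.0576 for Mt1, Mt2 and Mt3. Double het against Mrpl40 het gave 0.07 ± 0.103, 0.10 ± 0.205 and -0.01 ± 0.0576, and the interaction gave 0.04 ± 0.144, 0.04 ± 0.282 and 0.01 ± 0.0802. In these 3 comparisons edgeR again called 0 of 3 members, with 0 at an unadjusted p under 0.05 and 0 by DESeq2, and 0.0% of all genes. Slc25a1 het against Mrpl40 het was not tested in hippocampus. Its values were 0.21 ± 0.103 for Mt1 (95% interval 0.007 to 0.412), 0.28 ± 0.202 for Mt2 and 0.04 ± 0.0576 for Mt3. Astrocyte markers lay below wild type in 12 of 12 in Mrpl40 het (median -0.09) and above it in 12 of 12 in Slc25a1 het (median 0.08), none called. Ribosomal genes lay below in 27 of 28 in double het (median -0.08). Of all genes, 47.1% lay above wild type in Mrpl40 het, 51.9% in Slc25a1 het and 48.6% in double het. The part of these lists in the members' values was not tested.

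**Figure D4:**
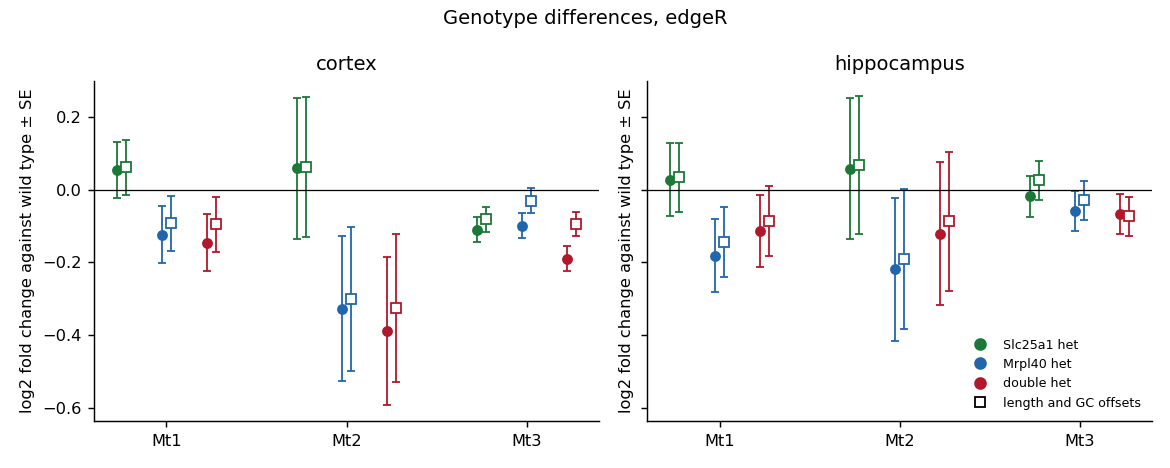
Log2 fold change against wild type with SE for each member in cortex and hippocampus, from edgeR (filled circles) and after adding offsets for length and GC content (open squares). Cortex Mt3 in double het moves from -0.19 to -0.09 with the offsets, while in hippocampus the values lie within 2 SE of 0.

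Of the other metal genes, none was called in double het hippocampus against wild type. The 6 metal sensing and storage genes, 9 SLC30, 13 SLC39 and 11 copper genes gave 0 calls in either direction by edgeR, as did the 16 glucocorticoid and 14 NRF2 genes. The smallest p in these lists belonged to Ccs, the copper chaperone of superoxide dismutase, at -0.21 ± 0.0576 (edgeR adjusted p = 0.632), and Sod1, its client, stood at -0.08 ± 0.0357 (adjusted p = 0.925). The zinc importer genes Slc39a7 and Slc39a9 gave 0.22 ± 0.0882 and 0.06 ± 0.034, and the exporter genes Slc30a9 and Slc30a2 gave 0.04 ± 0.0423 and 0.08 ± 0.0912. Ftl1 and S100b gave -0.12 ± 0.0575 and -0.07 ± 0.101. Nfkbia and Arrdc2 of the glucocorticoid list gave -0.13 ± 0.0593 and 0.18 ± 0.086, and Gstm1 and Gsta4 of the NRF2 list gave -0.10 ± 0.0616 and -0.08 ± 0.06. Mtf1 gave -0.02 ± 0.0399.

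Across animals of the same genotype, Mt1 and Mt2 levels rose and fell together within a tissue. After removing genotype means from log2 CPM, Mt1 and Mt2 correlated with a Pearson r of 0.671 and a Spearman rho of 0.607 in cortex (n = 30, permutation of animals within genotype, two-sided, p = 0.00025 and 0.00125, adjusted 0.00112 and 0.00562 over 9 relations). In hippocampus r was 0.63 and rho 0.544 (n = 29, permutation p = 0.00046 and 0.00434, adjusted 0.00138 and 0.013). Without the 2 libraries farthest from the median of Mt1, r was 0.567 in cortex and 0.506 in hippocampus. Within single genotypes r ranged from 0.35 to 0.929 in cortex and from 0.09 to 0.958 in hippocampus. The permutation treats the animals of a genotype as exchangeable. No correlation given here or below was computed with replicate number removed, and the part of replicate number was not tested.

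Mt1 and Mt3 correlated most closely in hippocampus, where r was 0.744 and rho 0.676 (n = 29, permutation p = 1e-05, the smallest the resampling can give, and 0.00029, adjusted 9e-05 and 0.00261). Without the 2 farthest libraries r was 0.656. In cortex r was 0.462 and rho 0.36 (n = 30, permutation p = 0.0162 and 0.0743, adjusted 0.0292 and 0.134). There r fell to 0.266 without the 2 farthest libraries and ranged from 0.343 to 0.592 within single genotypes. Mt2 and Mt3 gave r of 0.377 and rho of 0.303 in cortex (permutation p = 0.0573 and 0.124, adjusted 0.0859 and 0.186). In hippocampus they gave r of 0.483 and rho of 0.392 (permutation p = 0.0141 and 0.0444, adjusted 0.0292 and 0.0999). That r was 0.232 without the 2 farthest libraries and ranged from 0.2 to 0.854 within single genotypes.

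**Figure D5:**
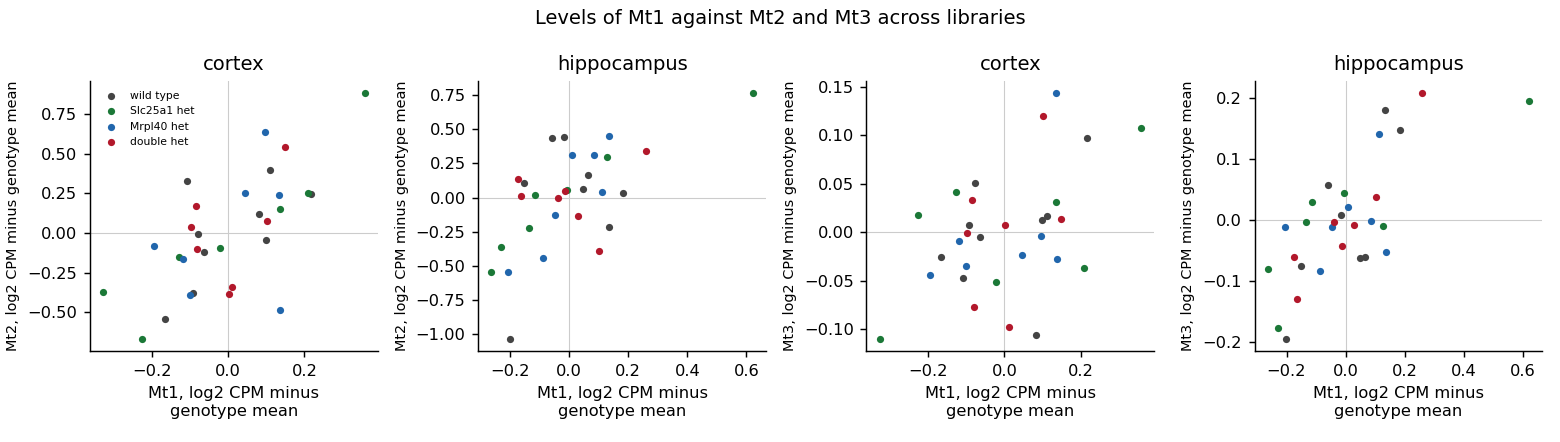
Log2 CPM of Mt2 (left pair of panels) and Mt3 (right pair) against that of Mt1 after removing genotype means, for 30 cortex and 29 hippocampus libraries, coloured by labelled genotype. The points rise together, with r of 0.671 and 0.63 for Mt2 and 0.462 and 0.744 for Mt3.

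No correlation between the 2 tissues of an animal passed the test for any member. Between cortex and hippocampus of 29 animals, r was 0.389 and rho 0.244 for Mt1 (permutation p = 0.125 and 0.25, adjusted 0.161 and 0.321). For Mt2, r was 0.055 and rho -0.013 (permutation p = 0.795 and 0.951, adjusted 0.795 and 0.951). For Mt3, r was 0.153 and rho 0.152 (permutation p = 0.451 and 0.459, adjusted 0.507 and 0.516).

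Each member was also set against the mean log2 CPM of 3 gene lists in each tissue, a family of 18 relations. In hippocampus, Mt1 correlated with the astrocyte markers (r = 0.743, rho = 0.766, permutation p = 1e-05 for both, adjusted 0.00018), with r of 0.706 without the 2 farthest libraries. Mt3 did so with r of 0.612 and rho of 0.613 (permutation p = 0.0008 and 0.00108, adjusted 0.0048 and 0.00486, r = 0.498 without the 2 farthest). Within single genotypes r ranged from 0.451 to 0.86 for Mt1 but from -0.056 to 0.84 for Mt3. In cortex, r with the astrocyte markers was 0.422 for Mt1 (rho 0.434, permutation p = 0.0669 and 0.0381, adjusted 0.142 and 0.0979; r = 0.572 without the 2 farthest). For Mt3 it was 0.005 (rho 0.02, permutation p = 0.982 and 0.924).

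In cortex, Mt3 correlated with the ribosomal protein genes, with r of 0.74 and rho of 0.694 (permutation p = 6e-05 and 7e-05, adjusted 0.00054 and 0.00063), r of 0.655 without the 2 farthest libraries, and r from 0.563 to 0.872 within genotypes. In hippocampus that relation had r of 0.511 and rho of 0.569 (permutation p = 0.0115 and 0.00276, adjusted 0.0413 and 0.00994; r = 0.479 without the 2 farthest). Mt1 and the ribosomal genes gave r of 0.514 in cortex (rho 0.58, permutation p = 0.00147 and 0.00105, adjusted 0.00661 and 0.00486; r = 0.463 without the 2 farthest) and 0.406 in hippocampus (rho 0.486, permutation p = 0.0163 and 0.0106, adjusted 0.0489 and 0.0318; r = 0.393). The points share library preparation and depth. The length and GC content offsets were not applied to the log2 CPM of any correlation, so the part of these trends was not tested. The 6 relations with the glucocorticoid response genes had r from -0.334 to 0.324 and adjusted permutation p of 0.178 or more.

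The genes most like each member were ranked among 12422 genes by the smaller of the cortex and hippocampus r over 30 and 29 libraries after removing genotype means, as a description. For Mt1 they were the linker histone gene Hist1h1c (0.81 in cortex and 0.852 in hippocampus), Lcat, which esterifies cholesterol in lipoproteins (0.856 and 0.808), the secreted protease inhibitor gene Cst3 (0.774 and 0.837), Utp14b (0.736 and 0.765) and the lipid receptor gene S1pr1 (0.72 and 0.844). For Mt2 the first was Mt1 (0.671 and 0.63), followed by the cobalamin carrier gene Tcn2 (0.589 and 0.591), Isoc2b (0.556 and 0.545), Thrsp (0.534 and 0.68) and the endothelial transcription factor gene Sox18 (0.595 and 0.533). For Mt3 they were Cst3 (0.739 and 0.813), the ribosomal protein gene Rps15 (0.676 and 0.688), the ribosomal pseudogene Rps12-ps3 (0.639 and 0.761), whose reads may come from its parent gene, Tprkb (0.634 and 0.724) and Edf1 (0.658 and 0.631). Cst3 stood on the lists of both Mt1 and Mt3.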

How the data were processed

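Paired-end reads came from poly(A) RNA with a strand-preserving kit, per the labels' protocols. The authors deposited raw counts for each gene, not normalized. The submitters' processing notes name FastQC, HISAT2, featureCounts and DESeq2 and the build mm39/GRCm39. The sources used here give neither the strand setting of the counting nor the annotation. The authors also deposited normalized counts, a signal in which each library's raw counts are divided by a single factor (largest relative range within a library 9.85e-10), with factors set within each tissue. Rows with a blank symbol, 7074 in number with 1.26% of counts, carry a gene identifier and stayed in the fits.

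Counts were tested with the edgeR 4.0.16 quasi-likelihood test (R 4.3.3, the data.table package, version 1.17.8), using TMM normalization, robust dispersion and edgeR's own filter on low counts. All 4 genotypes of a tissue were fitted together, and tissues were compared with the animal as a block over 29 animals. P-values were adjusted by Benjamini-Hochberg over all genes tested, with a threshold of 0.05. CPM values are scaled by TMM, and log2 CPM used a prior count of 2. Correlations used log2 CPM less genotype means and 100000 permutations within genotype. Replicates are separate animals. The fit was tested on simulated counts with known changes.

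Alternatives were DESeq2 size factors in edgeR, no filter, the Wald test of DESeq2 1.42.0, fits of only the genotypes compared, the replicate number or no animal as a block, limma 3.58.1 on log2 of the authors' normalized counts plus 1 (mean of at least 10), 2 surrogate variables (sva 3.50.0), length and GC content offsets, and leaving out single libraries, the 6 animals or the hippocampus library high in cerebellum markers (over 3 times the tissue median). GENCODE vM21 (GRCm38) gave lengths, GC content and overlaps and matched 97.3% of genes tested in cortex and 97.4% in hippocampus. Overlaps were found with bedtools 2.31.1, and Python 3.11.15, numpy 2.4.6, pandas 2.3.3, scipy 1.17.1 and matplotlib 3.10.9 made the tables and figures. Named genes were the members, the targeted genes, the 5 genes most like each member, the called list genes (4 smallest p where more) in the tissue comparison, and the 2 smallest p of each metal, glucocorticoid and NRF2 list in double het hippocampus. The labels give each library's animal, which pairs the tissues. As a check, deviations correlated with a median r of 0.125 within an animal (range -0.0319 to 0.3915 over 29 pairs) and -0.0068 between animals over 5000 genes. The members, lists and tests were chosen with earlier results of these data known.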

Additional observations from a re-analysis of the deposited data

Results flagged for a closer look

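Of 24 groups of a member in a tissue and genotype, 2 held a library far from the others, where chance alone would mark about 1 group in 20. Mt1 in hippocampus stood at 191 CPM in Slc25a1 het replicate 7, and the next library of that group stood at 135 CPM (n = 7). The same animal had the highest Mt1 and Mt2 levels of all cortex libraries, at 109 and 2.31 CPM. Mt3 in cortex stood at 152 CPM in Mrpl40 het replicate 2, and the next library of that group stood at 137 CPM (n = 7). The cause was not tested for either library.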

How the results depend on the processing

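The higher level in hippocampus kept its direction for each member, and its call for Mt1 and Mt2, under each of the alternatives run. No member was called under any alternative in the comparisons between genotypes that were tested. Members at an unadjusted p under 0.05 varied. In cortex Slc25a1 het against Mrpl40 het, 1 became 2 without the 6 animals. It became 0 with surrogate variables, the offsets, limma or only the genotypes compared. Against wild type in hippocampus, 0 became 1 for Mrpl40 het with surrogate variables or only the genotypes compared. For double het it became 1 with surrogate variables. The cortex comparisons with wild type or double het were not tested. Signs near 0 turned, with the cause not tested. Without the 6 animals, Mt1 in hippocampus gave -0.0132 in double het against Mrpl40 het, and the interaction gave -0.0473 for Mt1, -0.0455 for Mt2 and -0.0456 for Mt3. With the length and GC content offsets, Mt3 gave 0.0269 in Slc25a1 het hippocampus and -0.0715 for the interaction. With 2 surrogate variables, Mt3 gave 0.005 in double het against Mrpl40 het. The deposited normalized counts gave -0.0011 for Mt1 in Slc25a1 het hippocampus.

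The replicate number as a block gave -0.0051 for Mt1 and -0.0679 for Mt2 in Slc25a1 het hippocampus. The labels tie a replicate number to no shared litter, batch or day, so the numbers were not treated as pairs. Same-numbered libraries correlated with a median r of 0.113 in cortex (range -0.417 to 0.518 over 42 pairs) and 0.0633 in hippocampus, and 9 of 30 and 4 of 29 libraries correlated best with their own number. Libraries with different numbers gave medians of -0.0277 and 0.0074. The cortex median was near the 0.125 between the tissues of an animal. Whether replicate numbers share a batch was not tested. The block changed the genes called in double het cortex from 14 to 8 and in double het hippocampus from 2 to 0.

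With single libraries left out, hippocampus values ranged as follows. For Slc25a1 het against wild type they ran from -0.1033 to 0.0738 (Mt1), -0.1149 to 0.1446 (Mt2) and -0.0561 to 0.0107 (Mt3). The interaction ran from -0.0097 to 0.1696, -0.0476 to 0.2119 and -0.0294 to 0.0463, and Mt3 in double het against Mrpl40 het from -0.0484 to 0.0136. In cortex, Mt3 in Slc25a1 het against Mrpl40 het ran from -0.0285 to 0.0144. Without the 2 farthest libraries, r was 0.163 for Mt1 and -0.045 for Mt2 between tissues, 0.266 for Mt1 and Mt3 in cortex and 0.232 for Mt2 and Mt3 in hippocampus. Leaving out single animals was not run for the tissue fit, nor were the deposited normalized counts, which were scaled within each tissue.

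Counts of genes called also moved. With single libraries left out, 14 in double het cortex ranged from 1 to 32, 2 in double het hippocampus from 0 to 5, and 0 for double het against Slc25a1 het in hippocampus reached 10 without Slc25a1 het replicate 1. In double het cortex 14 became 105 with DESeq2, 35 with surrogate variables, 22 with no filter and 2 without the 6 animals. In double het hippocampus 2 became 8 with DESeq2, 6 with surrogate variables and 1 with no filter, with only the genotypes compared, without the 6 animals or without the library high in cerebellum markers. In Mrpl40 het cortex 6 became 23 with DESeq2, and in hippocampus 1 became 11 with DESeq2, 6 with the offsets or only the genotypes compared, 3 with limma, 2 with size factors, surrogate variables or no filter, and 0 with the replicate block or without the 6 animals. For Slc25a1 het against Mrpl40 het in cortex 5 became 13 with DESeq2 and 3 with only the genotypes compared. Counts of 0 became 14 (DESeq2) and 1 (surrogate variables, block) for double het against Slc25a1 het in hippocampus, 1 for double het against Mrpl40 het there and for Slc25a1 het against wild type in either tissue (without the 6 animals), 3 (block) for Slc25a1 het hippocampus, 4 (block) for the interaction, and 34 (DESeq2) and 2 (no filter) for the tissue difference of Slc25a1 het against Mrpl40 het. Low counts limit Mt2, whose SE is 0.194 to 0.22 between pairs of genotypes and 0.282 to 0.293 for the interactions.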
